A study of Phaseolus vulgaris and Phaseolus lunatus with 12 samples.

Results

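The jasmonate-induced oxygenases described here are 3 genes of lima bean (*Phaseolus lunatus*), Pl10G0000113900.v1, Pl08G0000109200.v1 and Pl01G0000397900.v1. They were picked by name from the deposited lima bean table, which holds 43997 genes, 12 of which carry jasmonate-induced oxygenase as their product name. The choice was made with their response to infestation already known, so the infested and control values of these 3 genes are given as a description, with no test. Leaf RNA was sequenced from lima bean var. Peladilla infested with the spider mite *Tetranychus urticae* (London strain) and from non-infested controls of the same variety. The infested leaves were detached first true leaves of plants grown for 3 weeks, each leaflet carrying 50 adult female mites, and leaves of both groups were frozen at 24 h. Leaves of common bean (*Phaseolus vulgaris*), of the cultivar California Red Kidney, were treated in the same way, and its infested and control leaves are used below only for the wider enzyme family, since its table gives no gene this product name. Each of the 4 groups held 3 libraries.

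Jasmonates are fatty acid derived hormones that switch on defence in leaves wounded or fed on by herbivores. Jasmonic acid becomes active when it is joined to isoleucine. The conjugate brings the receptor COI1 together with the JAZ repressors (found among the genes named TIFY in these tables), whose destruction frees transcription factors such as MYC2. In Arabidopsis, jasmonate-induced oxygenases are iron- and 2-oxoglutarate-dependent dioxygenases that hydroxylate jasmonic acid to 12-hydroxyjasmonate, an inactive form, before it can be joined to isoleucine, and their own transcription is raised by jasmonate. The lima bean product names read like best matches to such characterised proteins, so they state a resemblance and not a measured activity.

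Library totals ran from 13317991 to 17255676 counts in lima bean and from 17264823 to 19343807 in common bean. The labels do not say whether libraries of a group came from separate plants, and p-values therefore reflect library-to-library spread, which may be technical. The lima bean samples matched leaf tissue, with all 32 listed leaf marker genes expressed, but the markers were lower under infestation. Their summed level ran from 24779 to 46704 CPM (counts scaled to library size) in infested libraries, against 60030 to 76093 CPM in control libraries. At an adjusted p below 0.05 in edgeR's quasi-likelihood test, 19 of the 32 were called lower and 0 higher (0 higher also at an unadjusted p below 0.05 and in DESeq2), with a median log2 fold change of -1.13, where 7.46% of the 18523 genes tested were called lower and the median of all was -0.01. The count lower was 29 without infested library 1, 4 without infested library 2 or 3, 7 without control library 2 and 6 without control library 3. Whether this lower leaf marker level has a part in any value below was not tested, and in bulk tissue fewer cells of a type and less RNA per cell cannot be told apart.

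Pl10G0000113900.v1, whose product name is jasmonate-induced oxygenase 1, was the most abundant of the 3 genes per kilobase in infested leaves. It lies on chromosome 10 at 15539756 to 15543477, plus strand, in the coordinates of the deposited table, for which no source at hand names a genome build. It received 3130, 4155 and 5596 reads in infested libraries 1, 2 and 3, against 212, 114 and 94 reads in control libraries 1, 2 and 3. Scaled to library size these are 243, 276 and 415 CPM in infested leaves and 12.1, 7.99 and 6.80 CPM in control leaves. Infested library 3 was the highest and the groups lay far apart, the lowest infested library being 20.1 times the highest control library. The means were 311 ± 91.0 CPM in infested leaves and 8.96 ± 2.78 CPM in control leaves (SD, n = 3 each), a log2 fold change of 5.11 ± 0.30 (SE), the 26th highest value among 18523 tested genes.

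Pl08G0000109200.v1, a jasmonate-induced oxygenase 2 on the minus strand of chromosome 8 (9856325 to 9860488), came closest to an on and off pattern. Infested libraries 1, 2 and 3 gave it 1480, 1791 and 2723 reads, against 15, 14 and 0 reads in the 3 control libraries. These are 115, 119 and 202 CPM in infested leaves, against 0.86, 0.98 and 0 CPM in control leaves, where the 0 of control library 3 allows a level of up to 0.217 CPM at 3 counts. Again infested library 3 was the highest, and no control library came near the infested ones, the lowest infested value being 117 times the highest control value. The log2 fold change was 7.83 ± 0.52 (SE), the 5th highest of all tested genes, and it rests on the few reads of the control group, so its size is less certain than its direction.

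Pl01G0000397900.v1, also a jasmonate-induced oxygenase 2, lies on the minus strand of chromosome 1 (45778947 to 45782145) and had the most even response. It received 897, 969 and 970 reads in the infested libraries and 180, 187 and 147 reads in the control libraries. This gave 69.6, 64.4 and 71.9 CPM in infested leaves, against 10.3, 13.1 and 10.6 CPM in control leaves. The groups did not overlap and the libraries within each lay close together, with means of 68.6 ± 3.83 CPM in infested leaves and 11.3 ± 1.54 CPM in control leaves (SD, n = 3 each). The log2 fold change was 2.60 ± 0.13 (SE), rank 205 among all tested genes. All 3 genes had every infested library above every control library, which 19.7% of all tested genes had.

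**Figure D1:**
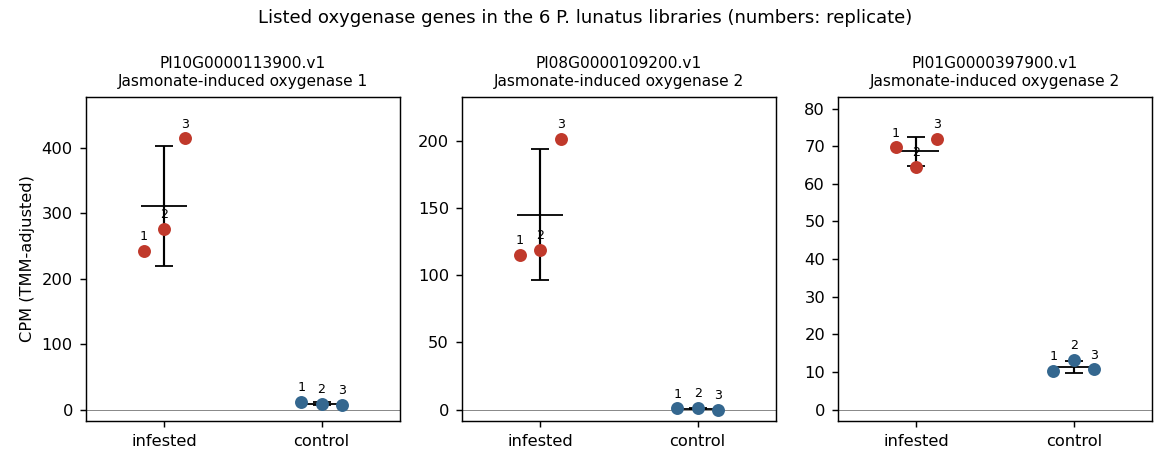
Level of the 3 oxygenase genes in CPM (linear axis, one scale per panel) in infested and control lima bean leaves. Points are libraries numbered by replicate, and the bar with whiskers is the mean ± SD (n = 3). Infested libraries run from 243 to 415 CPM for Pl10G0000113900.v1, 115 to 202 CPM for Pl08G0000109200.v1 and 64.4 to 71.9 CPM for Pl01G0000397900.v1, above all control libraries in each panel.

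Divided by gene length, the order of the 3 levels in infested leaves was Pl10G0000113900.v1 at 215 ± 62.9 CPM per kilobase, Pl08G0000109200.v1 at 76.2 ± 25.7 and Pl01G0000397900.v1 at 41.0 ± 2.29 (SD, n = 3 each). This order held in each of the 3 infested libraries, and no neighbouring pair in it overlapped. In control leaves the order was different, with Pl01G0000397900.v1 at 6.77 ± 0.917 CPM per kilobase, Pl10G0000113900.v1 at 6.20 ± 1.92 and Pl08G0000109200.v1 at 0.321 ± 0.280. There the first pair overlapped, since control library 1 had more of Pl10G0000113900.v1 (8.37 against 6.13 CPM per kilobase) and control libraries 2 and 3 had less of it. Within infested libraries, Pl10G0000113900.v1 kept a near constant ratio to Pl08G0000109200.v1, at 2.79, 3.06 and 2.71 per kilobase in libraries 1, 2 and 3. Its ratio to Pl01G0000397900.v1 was less even, at 4.04, 4.97 and 6.68 in the same libraries, where the level of Pl01G0000397900.v1 hardly moved between them. Against all tested genes per kilobase, Pl10G0000113900.v1 lay above 97.8% in infested leaves and above 37.3% in control leaves. The same figures were 92.3% and 1.16% for Pl08G0000109200.v1, and 84.5% and 39.6% for Pl01G0000397900.v1.

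The other 9 lima bean genes of this product name were mostly not called. Of the 8 that passed the filter on low counts, 2 were called higher in infested leaves and 0 lower by edgeR, beside 9.65% of all tested genes called higher and 7.46% lower. At an unadjusted p below 0.05, 2 were lower, and DESeq2 called 0 lower. Pl08G0000362800.v1 had 16.8, 31.7 and 40.1 CPM in infested libraries 1, 2 and 3, against 2.57, 1.26 and 1.74 CPM in control libraries 1, 2 and 3. Pl08G0000362700.v1 had 9.32, 19.7 and 25.6 CPM in the infested libraries, against 1.31, 1.26 and 1.23 CPM in the control libraries. In both genes infested library 1 was the lowest of its group and the groups did not overlap. The log2 fold changes were 3.97 ± 0.38 for Pl08G0000362800.v1 and 3.83 ± 0.39 for Pl08G0000362700.v1 (SE), with adjusted p = 0.00048 and adjusted p = 0.000638 (edgeR quasi-likelihood test, Benjamini-Hochberg).

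These 2 genes are neighbours on the plus strand of chromosome 8, at 51003026 to 51003547 and 51010938 to 51013172, with 7390 bases between them. Pl08G0000362700.v1 is 522 bases long and is annotated with only the N-terminal domain of this enzyme family. Pl08G0000362800.v1 is 528 bases long and is annotated with only the 2-oxoglutarate and iron binding domain. The 8 genes with both domains include all 3 of the genes described first, whose lengths are 1447, 1907 and 1676 bases. Of the reads of the pair, Pl08G0000362700.v1 took 35.7%, 38.3% and 38.9% in infested libraries and 33.8%, 50.0% and 41.5% in control libraries, so its share did not separate the groups. Summed into 1 feature, an alternative chosen after the data were seen, the pair had 26.1, 51.4 and 65.6 CPM in infested leaves against 3.88, 2.52 and 2.97 CPM in control leaves. The log2 fold change of the sum was 3.92 ± 0.36 (SE, adjusted p = 0.000381). Whether the pair is 1 gene split by the annotation was not tested.

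The 6 other tested genes of the name did not pass the test. Pl08G0000157300.v1, the highest of the 12 per kilobase in control leaves, had 83.3, 103 and 67.6 CPM in infested libraries against 137, 98.9 and 104 CPM in control libraries, and the groups overlapped (log2 fold change -0.42 ± 0.18, adjusted p = 0.144). Pl03G0000385800.v1 had 50.5, 52.0 and 35.8 CPM in infested libraries against 59.1, 66.0 and 59.5 CPM in control libraries. Its groups did not overlap, but its log2 fold change of -0.42 ± 0.15 missed the threshold (adjusted p = 0.0916). The next gene on chromosome 3, Pl03G0000385900.v1, starts 370 bases further on and had a log2 fold change of -0.49 ± 0.30 (adjusted p = 0.304).

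Pl06G0000196700.v1, the 1 gene named jasmonate-induced oxygenase 4, was the flattest of those with both domains, at 25.9 ± 1.83 CPM in infested leaves and 28.8 ± 1.84 CPM in control leaves (log2 fold change -0.15 ± 0.11, adjusted p = 0.385). Pl03G0000014900.v1 had 8.31, 6.65 and 7.04 CPM in infested libraries, against 3.88, 5.39 and 6.22 CPM in control libraries, groups that did not overlap (0.51 ± 0.23, adjusted p = 0.171). Pl07G0000313300.v1, which carries the name but no annotated domain, had a log2 fold change of 0.11 ± 0.14 (adjusted p = 0.635). The last of the 12, Pl06G0000080700.v1, had 0 reads in all 6 libraries and was not tested.

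**Figure D2:**
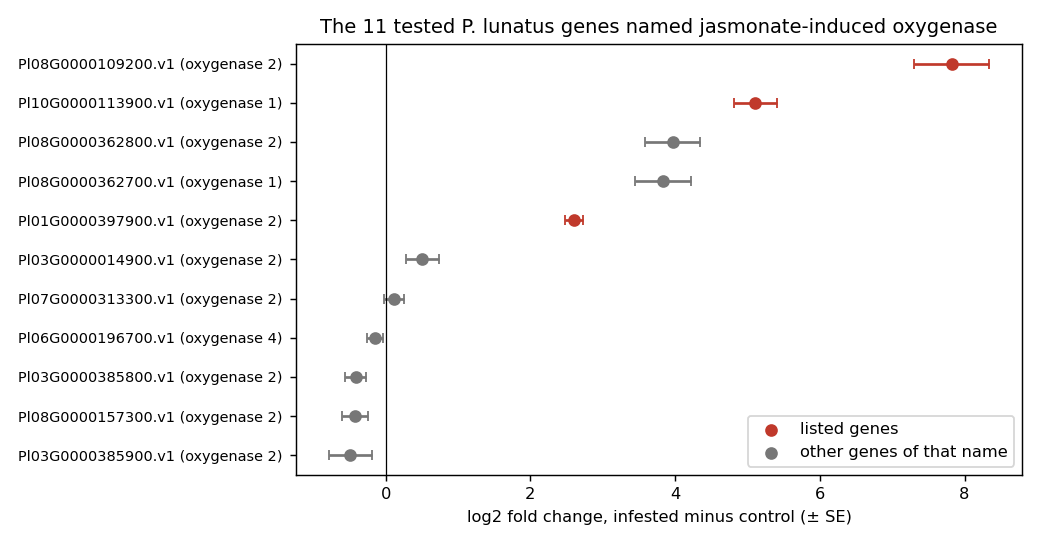
Log2 fold change (infested minus control, point ± SE) of the 11 lima bean genes named jasmonate-induced oxygenase that passed the filter, ordered by value. The 3 genes described first are in red, at 7.83, 5.11 and 2.60, the adjacent pair on chromosome 8 stands at 3.97 and 3.83, and the other 6 lie between -0.49 and 0.51.

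Because these genes share a name and were measured in the same libraries, their levels per kilobase were also added up. The 12 genes summed to 435, 518 and 658 CPM per kilobase in infested libraries 1, 2 and 3, against 178, 152 and 154 CPM per kilobase in control libraries 1, 2 and 3. The make-up of that sum differed between the groups. Pl10G0000113900.v1, Pl08G0000109200.v1 and Pl01G0000397900.v1 together made up 61.5% ± 4.94 of it in infested leaves and 8.22% ± 0.972 in control leaves (SD, n = 3 each). The largest single part was Pl10G0000113900.v1 in infested leaves, at 39.7% ± 3.47, against 3.79% ± 0.835 in control leaves. In control leaves the largest part was Pl08G0000157300.v1, with 10.2% ± 3.31 in infested leaves and 43.3% ± 3.89 in control leaves. The adjacent pair on chromosome 8 added 16.4% ± 4.33 in infested leaves and 3.65% ± 0.496 in control leaves. These figures count the pair as 2 genes, each divided by its own length. Taken as 1 gene of their joined length, the pair would have a lower level per kilobase, and all shares would change. The remaining 7 genes summed to 115, 129 and 98.3 CPM per kilobase in infested libraries against 156, 134 and 137 in control libraries, a narrower gap than that of the 3 genes. Since the 3 genes were chosen for their response, these shares describe the libraries and carry no test.

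**Figure D3:**
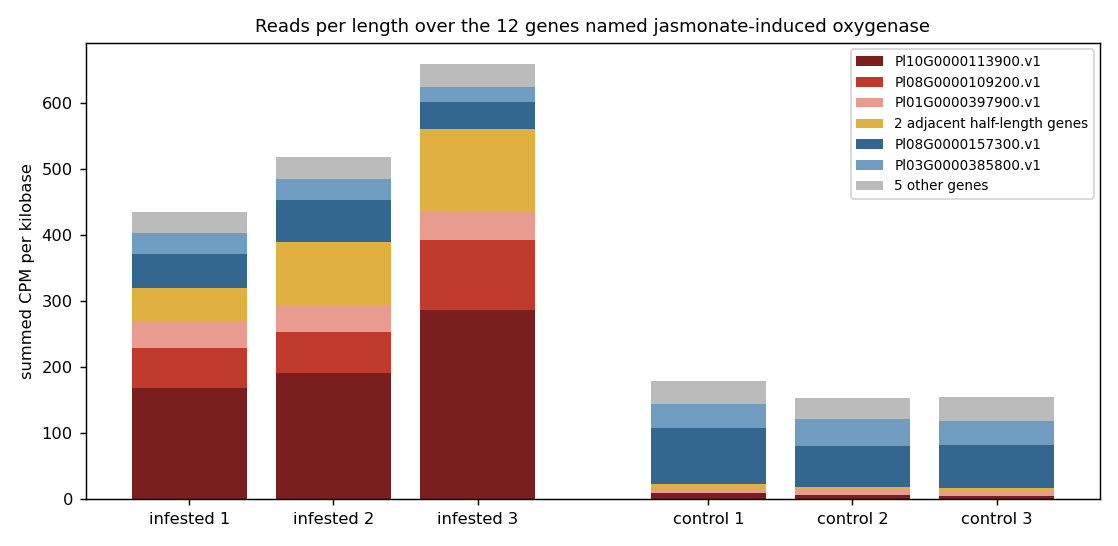
Summed CPM per kilobase over the 12 lima bean genes named jasmonate-induced oxygenase, one stacked bar per library, infested left and control right, axis from 0. Red shades are the 3 genes described first (61.5% of the sum on average in infested leaves and 8.22% in control leaves), yellow the adjacent pair on chromosome 8, blue shades and grey the other 7 genes.

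The 3 genes lie on different chromosomes, and most of the genes around them were not called or not tested. Of the 5 annotated genes on each side of each one, 30 in all, 15 were tested, 4 were called higher and 0 lower by edgeR (0 lower also at an unadjusted p below 0.05 and in DESeq2), with a median log2 fold change of 0.24, beside 9.65% of all tested genes called higher and 7.46% lower. Around Pl10G0000113900.v1 none of the 10 neighbours had enough reads to be tested. The closest neighbour of Pl08G0000109200.v1, PHL7 (Pl08G0000109100.v1, a MYB family transcription factor, 4502 bases away), had 0.759 ± 0.264 CPM in infested leaves and 0.960 ± 0.376 CPM in control leaves, with adjusted p = 0.675. Further out, 3 of its 9 tested neighbours were called higher. These were a GDSL esterase/lipase (Pl08G0000108700.v1, 1.49 ± 0.17, adjusted p = 0.0011), an unnamed gene (Pl08G0000109500.v1, 4.38 ± 0.54, adjusted p = 0.00175) and the PHD finger protein ALFIN-LIKE 1 (Pl08G0000109000.v1, 0.43 ± 0.10, adjusted p = 0.0208). The last call was lost when infested library 2 was left out (adjusted p = 0.0648), and when infested library 3 was (adjusted p = 0.0825). Beside Pl01G0000397900.v1, 1 of 6 tested neighbours was called higher, the RING-H2 finger protein ATL66 (Pl01G0000398400.v1, 1.92 ± 0.29, adjusted p = 0.0041). Its closest neighbour, SMAX1-LIKE 8 (Pl01G0000397800.v1, 5394 bases away), had 90.2 ± 22.1 CPM in infested leaves and 125 ± 37.0 CPM in control leaves (adjusted p = 0.216). The product names SMAX1-LIKE 8 and kinase-like protein CCR3 also occur among the genes next to the adjacent pair on chromosome 8, so these oxygenase genes sit among neighbours of the same names.

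The oxygenases stand at the branch where jasmonic acid is either conjugated or taken out of use, so the other turnover enzymes were described as a list. Of 25 tested genes of jasmonate conjugation and breakdown, 7 were called higher and 2 lower, with a median log2 fold change of 0.21, beside 9.65% of all tested genes called higher and 7.46% lower. The 1 gene found by product name for the conjugating enzyme that draws on the same jasmonic acid was not called. This gene, the jasmonoyl amino acid synthetase JAR4 (Pl10G0000301900.v1), had 115 ± 22.0 CPM in infested leaves and 117 ± 31.8 CPM in control leaves. Its log2 fold change was -0.03 ± 0.22 (adjusted p = 0.935). The sign turned positive (0.02 to 0.10) when infested library 2 or 3, or control library 2 or 3, was left out. Copies under other product names were not searched for.

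Other enzymes of the list belong to families with members that act on the isoleucine conjugate. Whether these lima bean genes do so was not tested. The counts called among them stand beside 9.65% of all tested genes called higher and 7.46% lower. Of 6 tested ILR1-like amidohydrolases, a family whose Arabidopsis members split amino acid conjugates of auxin and jasmonate, 3 rose and 0 fell by edgeR, with 0 lower also at an unadjusted p below 0.05 and in DESeq2. ILR1-like 1 (Pl03G0000064000.v1) had 153 ± 32.3 CPM in infested leaves and 15.3 ± 2.52 CPM in control leaves, a log2 fold change of 3.32 ± 0.19 (adjusted p = 8.31e-05). ILR1-like 4 (Pl05G0000275900.v1) rose by 2.02 ± 0.15 and ILR1-like 6 (Pl09G0000121600.v1) by 2.64 ± 0.21 on the log2 scale, with adjusted p = 0.000187 and adjusted p = 0.000215. All 3 tested cytochromes P450 of the 94B and 94C groups, which oxidise jasmonoyl-isoleucine in Arabidopsis, were called higher. They averaged 1.36 to 3.75 CPM per kilobase in infested leaves, below the 41.0 CPM per kilobase or more of the 3 oxygenases. Those 3 were chosen for their response, and the other 9 genes of the oxygenase name ranged from 0 to 55.9 CPM per kilobase there. A CYP94B1 on an unplaced contig (tig000020350050.v1) had 2.03 ± 0.881 CPM in infested leaves and 0 reads in all control libraries, at least 30.8-fold higher against a floor of 3 counts over the control group (adjusted p = 0.00417). CYP94C1 (Pl11G0000102200.v1) had 5.51 ± 2.55 CPM in infested leaves and 0.234 ± 0.345 CPM in control leaves (4.57 ± 0.80, adjusted p = 0.00774). The second CYP94B1 (Pl01G0000140800.v1) rose by 1.76 ± 0.45 (adjusted p = 0.032), a call lost when infested library 1 or 3, or control library 2 or 3, was left out (adjusted p 0.0909 to 0.0998).

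CYP94C1, the second CYP94B1 and the next 3 genes are called members of their groups, and naming them was a choice made after their values were seen. The counts below stand beside 9.65% of all tested genes called higher and 7.46% lower. Of 3 tested CYP94A genes, whose vetch relative hydroxylates fatty acids, 0 were called higher by edgeR (0 also at an unadjusted p below 0.05 and in DESeq2), and 1 fell, by 1.81 ± 0.29 (Pl01G0000252600.v1, adjusted p = 0.00499). Of 2 tested jasmonic acid carboxyl methyltransferases, which make volatile methyl jasmonate, 1 rose by 2.13 ± 0.45 (Pl01G0000013000.v1, adjusted p = 0.0153, or 0.0705 without infested library 3). Of 4 tested methylesterases, a family that includes enzymes splitting methyl jasmonate, 0 were called higher by edgeR (1 at an unadjusted p below 0.05, 0 in DESeq2) and 1 lower, methylesterase 17 (Pl09G0000154400.v1, -0.61 ± 0.17, adjusted p = 0.0442), a call lost with each of the 6 libraries left out in turn (adjusted p 0.0742 to 0.138) and with no filter on low counts (adjusted p = 0.0604). None of 6 tested cytosolic sulfotransferases, of the family that sulfates 12-hydroxyjasmonate in Arabidopsis, was called in either direction by edgeR, their log2 fold changes running from -0.95 to 0.11. Of these, 1 was lower at an unadjusted p below 0.05, and DESeq2 called 1 lower.

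Genes of jasmonate synthesis, which supply the substrate, were called higher in 22 of 40 tested cases and lower in 3, with a median log2 fold change of 0.90, beside 9.65% of all tested genes called higher and 7.46% lower. By step, the calls higher were 4 of 6 for 13S-lipoxygenase, which oxygenates linolenic acid, 4 of 4 for allene oxide synthase, 2 of 3 for allene oxide cyclase, 2 of 2 for 12-oxophytodienoate reductase 3, and 1 of 5 for other 12-oxophytodienoate reductases. Calls lower included 1 of the 6 lipoxygenases, Pl06G0000032000.v1 (-1.07 ± 0.30, adjusted p = 0.0421), a call lost when any library except infested library 1 was left out (adjusted p 0.0639 to 0.138). Among the 5 other reductases, Pl09G0000018700.v1 was called lower (-3.24 ± 0.73, adjusted p = 0.0198). That call was lost when infested library 2 or 3 was left out (adjusted p = 0.0801 and adjusted p = 0.089). It had 12.3, 2.45 and 2.46 CPM in control libraries 1, 2 and 3, so control library 1 weighs most in its size. Infested libraries ran from 0.532 to 0.699 CPM. Both this reductase and the lipoxygenase are named after their values were seen. The lipoxygenase Pl06G0000306200.v1 averaged 416 ± 81.1 CPM in infested leaves and 15.1 ± 1.16 CPM in control leaves, a difference of 4.78 ± 0.18 on the log2 scale, close to that of Pl10G0000113900.v1. Allene oxide cyclase Pl04G0000080700.v1 rose by 3.89 ± 0.28 (adjusted p = 0.000141). Of the reductases, Pl03G0000203100.v1 was the more abundant per kilobase, at 130 ± 11.2 CPM per kilobase in infested leaves and 40.6 ± 4.37 in control leaves, while Pl03G0000203000.v1 had the larger difference, with 12.7 ± 3.21 CPM per kilobase in infested leaves and 0.318 ± 0.349 in control leaves (adjusted p = 0.000533).

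Among genes of jasmonate perception and repression, 11 of 29 tested were called higher and 2 lower, with a median of 0.10, beside 9.65% of all tested genes called higher and 7.46% lower. The 11 comprised 7 of 10 genes named TIFY, 3 of 6 genes named MYC2 or bHLH14 and 1 of 6 Ninja family adaptors, while none of 5 Topless-related corepressors was called by edgeR (1 lower at an unadjusted p below 0.05, 0 in DESeq2). TIFY 8 (Pl09G0000075500.v1), which was not called, is annotated without the Jas motif that the other tested TIFY genes carry. The TIFY count may therefore include genes that are not JAZ repressors. TIFY 10B (Pl10G0000320100.v1) had 401 ± 68.4 CPM in infested leaves and 49.4 ± 1.53 CPM in control leaves, a log2 fold change of 3.02 ± 0.15 (adjusted p = 5.28e-05). Of 4 tested genes named MYC2, the factor freed when JAZ proteins are destroyed, 1 was called (Pl03G0000377900.v1, which rose by 1.06 ± 0.13, adjusted p = 0.00191). Another, Pl02G0000047000.v1, had 197 ± 22.4 CPM in infested leaves and 186 ± 31.5 CPM in control leaves (0.09 ± 0.15, adjusted p = 0.737). The remaining ones, Pl01G0000062100.v1 and Pl01G0000062200.v1, had adjusted p = 0.932 and adjusted p = 0.547. Both lack the annotated DNA-binding domain that the first 2 carry, are 933 and 666 bases long, and averaged only 1.52 CPM in infested leaves. Whether they are whole MYC2 genes was not tested. Both COI1 receptor genes were called lower by small amounts, Pl08G0000366100.v1 at -0.39 ± 0.10 (adjusted p = 0.0291) and Pl01G0000393900.v1 at -0.40 ± 0.11 (adjusted p = 0.0423). Both COI1 calls changed when libraries were left out: Pl08G0000366100.v1 missed the threshold with each of the 6 libraries left out in turn (adjusted p 0.0528 to 0.122) and Pl01G0000393900.v1 with any except control library 2 (adjusted p 0.0598 to 0.162) and with no filter on low counts (adjusted p = 0.0519).

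Genes of defence outputs that jasmonate is known to induce were called higher in 10 of 18 tested cases and lower in 1, with a median of 1.51, beside 9.65% of all tested genes called higher and 7.46% lower. Alpha-farnesene synthase (Pl11G0000015600.v1), which makes a leaf volatile, had 955 ± 117 CPM in infested leaves and 36.2 ± 10.9 CPM in control leaves, a log2 fold change of 4.72 ± 0.24 (adjusted p = 6.55e-05). The Kunitz inhibitors Pl04G0000322700.v1 and Pl04G0000330400.v1, which block digestive proteases of herbivores, rose by 2.59 ± 0.17 and 2.63 ± 0.18. Both Kunitz changes are close in size to that of Pl01G0000397900.v1. No source at hand says how reads shared by similar copies were counted, so single members of such families, the oxygenases included, are uncertain.

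**Figure D4:**
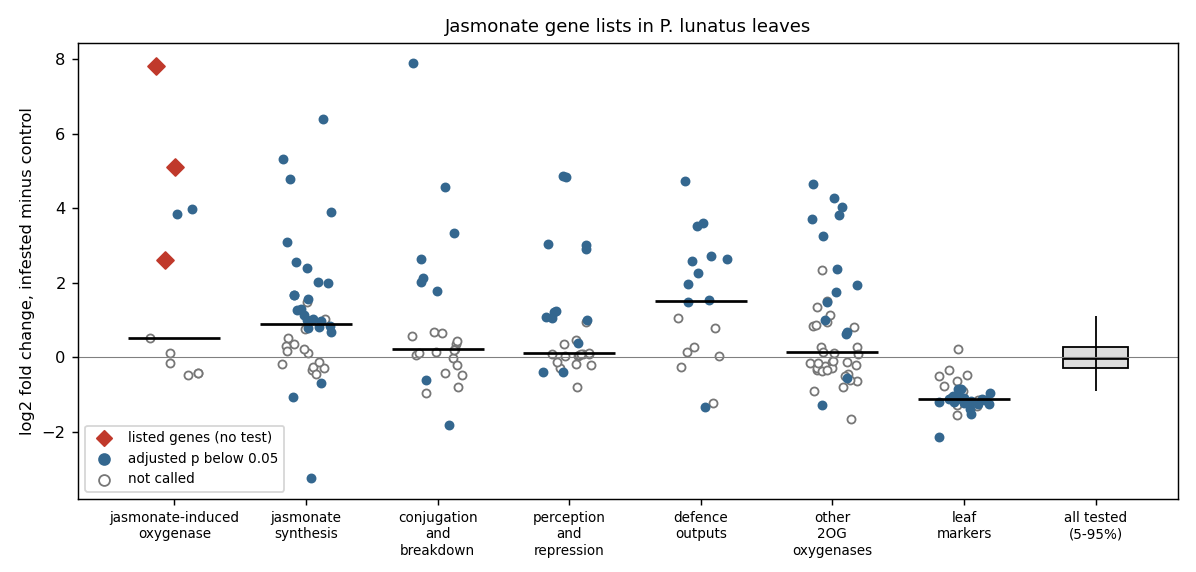
Log2 fold change (infested minus control) of each tested lima bean gene in 7 groups, with the median of each group as a black line and, at the right, all 18523 tested genes (box from the 25th to the 75th percentile, line to the 5th and 95th). Red diamonds are the 3 oxygenases described first, filled circles have an adjusted p below 0.05 and open circles do not. Medians run from -1.13 in leaf markers to 1.51 in defence outputs.

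The oxygenases belong to a large domain family, the 2-oxoglutarate and iron dependent oxygenases, which serves many pathways. Without the genes of this product name, the family has 101 genes in lima bean, of which 48 were tested, 13 called higher and 1 lower (median log2 fold change 0.12), beside 9.65% of all tested genes called higher and 7.46% lower. Without infested library 3, 8 were called higher. The called member with the smallest p was a 1-aminocyclopropane-1-carboxylate oxidase homolog 1 (Pl08G0000146700.v1), with 112 ± 11.2 CPM in infested leaves and 11.8 ± 2.34 CPM in control leaves (3.25 ± 0.16, adjusted p = 5.28e-05). A gene of the same name beside it in the numbering, Pl08G0000146800.v1, rose by 2.37 ± 0.17. A gene named codeine O-demethylase after the poppy enzyme (Pl06G0000287500.v1) had 23.3 ± 5.28 CPM in infested leaves and 0.893 ± 0.565 CPM in control leaves (4.64 ± 0.36, adjusted p = 0.000193). In a list of such enzymes of other pathways, made by product name, 13 of 47 tested genes were called higher and 2 lower. Without infested library 3, 8 were called higher. This list overlaps the domain family and has the same 3 called genes of smallest p, so its counts are not separate evidence. It includes the auxin oxidising enzyme DAO (Pl04G0000054800.v1), which rose by 1.75 ± 0.14.

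In common bean, where no gene carries the product name, the same domain family holds 123 genes, of which 56 were tested, 7 were called higher and 0 lower by edgeR, beside 0.935% of 19360 tested genes called higher and 0.0413% lower. At an unadjusted p below 0.05, 2 were lower, and DESeq2 called 1 lower. The 7 calls higher became 4 without infested library 2 or control library 1, and 3 without control library 2. The 3 with the smallest p have no product name in the table. PHAVU_010G000300g had 23.9 ± 5.32 CPM in infested leaves and 1.05 ± 0.141 CPM in control leaves, a log2 fold change of 4.51 ± 0.24 (adjusted p = 4.7e-05). PHAVU_002G232800g had 3.71 ± 0.776 CPM in infested leaves and 0 reads in all control libraries, at least 67.4-fold higher against 3 counts over the control group (adjusted p = 0.00322). PHAVU_001G065300g had 4.06 ± 2.24 CPM in infested leaves and 0.0382 ± 0.0662 CPM in control leaves (adjusted p = 0.0071). Which of these, if any, corresponds to a lima bean oxygenase was not tested, since the tables share no gene IDs, and the difference between the species was not tested either.

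Across the 6 lima bean libraries, each of the 3 genes had its own set of genes with the most similar pattern, measured as the Euclidean distance between log2 CPM values centred on their mean. Genes were ranked on the same values that separate infested from control, so likeness here is largely likeness in the size of that difference. The 2 prior counts added before taking logs narrow that difference in genes with few reads. Among the genes below, the CEN-like protein 2 had 0 reads in all control libraries. The shikimate dehydrogenase had 31 to 33 reads in infested libraries and 3 to 4 in control libraries. Nearest to Pl10G0000113900.v1 were the codeine O-demethylase Pl06G0000287500.v1 (distance 0.76) and the 13S-lipoxygenase Pl06G0000306200.v1 (0.85), followed by a CEN-like protein 2 (0.96), a wax ester synthase (0.97) and a probable terpene synthase 11 (0.99). Nearest to Pl01G0000397900.v1 were the 13S-lipoxygenase Pl10G0000321400.v1 (0.21), a dehydroquinate dehydratase/shikimate dehydrogenase of aromatic amino acid synthesis (0.22) and the Kunitz inhibitor Pl04G0000322700.v1 (0.35). Next came a gene named acyl-CoA thioesterase 4 (0.40) and a delta-7 desaturase (0.42). The gene named as a thioesterase is annotated only with a Formin Homology 2 domain, so its name is uncertain.

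Pl08G0000109200.v1 had no gene as close. Its nearest were alpha-dioxygenase 1 (Pl04G0000018900.v1), which oxidises fatty acids, at 2.20, and peroxidase 12 (Pl04G0000129800.v1) at 2.67. An amino acid transporter AVT1I (2.99), a chloroplast carbonic anhydrase (3.20) and terpene synthase 11 (3.56) came next. The carbonic anhydrase had 0, 9 and 0 reads in control libraries 1, 2 and 3. The pattern includes the 0 reads in control library 3, and its part in these distances was not tested. Between the 3 oxygenases the distances were 3.20 for Pl10G0000113900.v1 and Pl01G0000397900.v1, 4.14 for Pl10G0000113900.v1 and Pl08G0000109200.v1, and 7.08 for Pl08G0000109200.v1 and Pl01G0000397900.v1, so each was nearer to genes of other names than to the other two.

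**Figure D5:**
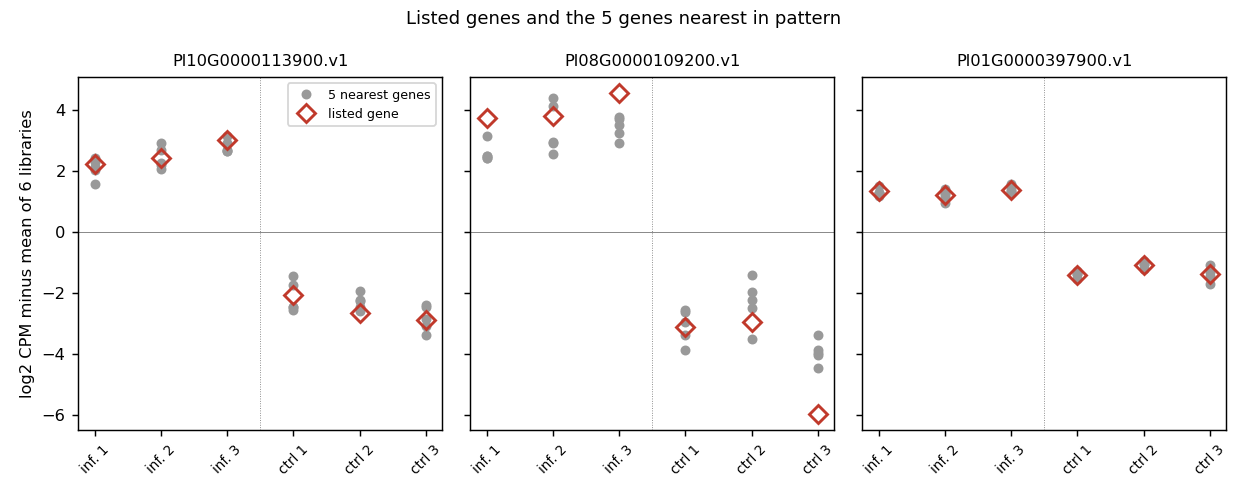
Log2 CPM minus the mean of the 6 lima bean libraries for each of the 3 oxygenases (open red diamonds) and the 5 genes nearest in pattern (grey points), infested libraries left of the dotted line and control libraries right of it. The nearest genes lie within distances of 0.76 to 0.99 of Pl10G0000113900.v1, 2.20 to 3.56 of Pl08G0000109200.v1 and 0.21 to 0.42 of Pl01G0000397900.v1.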

How the data were processed

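Both species' tables hold raw read counts for every gene as the authors deposited them, a column to a library, beside the gene length in bases that they also deposited. HISAT2, featureCounts and DESeq2 are listed in the submitters' processing notes, with neither versions nor settings. No source used here gives the genome builds, the annotation releases or whether counting used strand.

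The species were modelled separately in edgeR 4.0.16 (R 4.3.3). Low counts were removed with filterByExpr, libraries were scaled by TMM, and infested was tested against control by quasi-likelihood over all genes, with Benjamini-Hochberg adjustment. Calls are adjusted p-values below 0.05. CPM uses the TMM-adjusted library size, CPM per kilobase divides it by gene length, and for centred log2 CPM 2 prior counts were added. An SE is the absolute log2 fold change over the square root of F. The test was tried on simulated counts.

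The 3 oxygenase genes and all gene lists were chosen with earlier results of these data known. Lists match words in product names, and their wording was trimmed to drop unrelated proteins after the names were seen. Named genes are the oxygenases, the 4 called genes of smallest p per list (3 per domain family), the usual key genes of jasmonate steps, called neighbours and the 5 genes nearest in pattern. Alternatives were other scalings, no filter, a robust fit, DESeq2 1.42.0, a replicate block, each library left out and the summed adjacent pair. No 2 libraries of a group looked like copies of each other. None of the gene IDs matched the reference table (0 IDs), and no sequences of these genes were used.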

Additional observations from a re-analysis of the deposited data

How the results depend on the processing

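The log2 fold changes of the 3 oxygenases kept their direction in all 42 alternative values, between 4.85 and 5.39 for Pl10G0000113900.v1, 7.30 and 8.24 for Pl08G0000109200.v1, and 2.53 and 2.71 for Pl01G0000397900.v1. The called genes in lima bean numbered 3170, 1788 higher and 1382 lower. With 1 library left out they ran from 1317 to 3204, from 900 to 1671 and from 417 to 1533, with 1485 without infested library 2, 1317 without infested library 3 and 2066 without control library 3. Counts higher with 1 library left out were 19 to 26 in synthesis, 5 to 7 in conjugation and breakdown, 9 to 10 in perception, 8 to 11 in outputs and 8 to 15 both in enzymes of other pathways and in the lima bean domain family. The last 2 sets overlap. Leaf markers lower numbered 4 to 29. In common bean 189 genes were called (181 higher, 8 lower), with 1 library left out 92 to 172, 91 to 158 and 0 to 14, and 3 to 6 in the domain family. DESeq2 called 457 there (391 higher, 66 lower), and 13 were lower with no filter and 18 in the robust fit. In lima bean the replicate numbers do not pair the libraries (correlations of same-numbered deviations -0.22, 0.049 and -0.184). In common bean the same-numbered correlations were 0.138, 0.085 and 0.206, above those of differently numbered libraries (-0.202 to 0.078). Whether the common bean libraries are paired was not tested, and the main fit treats them as unpaired. A fit with the replicate block called 1617 in lima bean (1046 higher, 571 lower), 5 leaf markers lower, and in common bean 539 (405 higher, 134 lower). Under that block 5 named genes missed the threshold: both COI1 genes (adjusted p 0.0893 and 0.127), ALFIN-LIKE 1 (0.0765), methylesterase 17 (0.122) and the lipoxygenase Pl06G0000032000.v1 (0.0932). JAR4 turned positive without infested library 2 or 3 or control library 2 or 3 (adjusted p 0.892, 0.979, 0.823 and 0.889, with 0.364 the lowest over the libraries left out), and the MYC2 gene Pl02G0000047000.v1 turned negative without infested library 2 (0.983, range 0.28 to 0.998). Of 587 alternative values of named genes with a test, 544 kept their side and direction 38 lost the call and 5 changed sign. The cause of these shifts was not tested.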
